A study of Mus musculus with 2 samples.

Results

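The genes described here encode the proteins of the cytosolic ribosome. They were taken as the rows of the gene table whose symbol is Rpl or Rps followed by a digit, or Rplp0 to Rplp2, without the S6 kinase genes (Rps6k) and without 5 rows named as pseudogenes. This found 85 of 32285 genes. Of these, 76 are canonical ribosomal protein genes, with 43 of the large subunit, 3 of its P-stalk and 30 of the small subunit. The other 9 symbols are the paralogs Rpl22l1, Rps27l, Rps27rt, Rpl36al, Rpl39l, Rpl10l, Rpl3l and Rpl7l1, and Rps19bp1, which encodes a protein that binds S19 and is no ribosomal protein itself. Rpsa and Fau, ribosomal protein genes with other names, lie outside the rule and are given beside it.

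The study deleted Maf, the gene of the transcription factor c-Maf, in liver sinusoidal endothelial cells (LSECs), the fenestrated endothelium of the liver's smallest vessels. Maf LSEC-KO mice carried Clec4g-iCre (tg/wt) on a Maf fl/fl background, and controls were littermates without Cre (Clec4g-iCre wt/wt) that carried floxed Maf alleles, which the labels call WT. The Clec4g promoter restricts Cre to LSECs. Endothelial cells from a pool of 3 livers per genotype were enriched with anti-CD146 beads and made into 1 library of 3′ single-cell RNA-seq each, so no replicate existed, no test between the genotypes was possible, and the intervals below cover counting error only. The age and sex of these pooled mice are not given in the sources used here.

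A ribosome joins a single copy of nearly every ribosomal protein with ribosomal RNA, and cells make these proteins in matched amounts. Their mRNAs are among the most abundant of a cell and typically begin with a C followed by a run of pyrimidines, the 5′ terminal oligopyrimidine (TOP) tract, through which mTOR signalling controls their translation. In quiescent endothelium demand for new ribosomes is low, whereas growing and dividing cells need many.

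To look for this tract, windows of 15 bases on either side of the start site that RefSeq lists first (GRCm38.p6, 5′ to 3′ on the gene's strand) are printed. They are given for the 4 canonical members whose levels differed most between the genotypes and the 4 whose levels differed least, among those in the promoter table. Windows of Rpl22 and the paralogs Rpl22l1 and Rps27l are added. Capitals mark a C within 5 bases of the listed start that is followed by at least 4 bases each C or T, as far as the window reaches.
Rpl10a, chr17:28328456-28328485, + strand: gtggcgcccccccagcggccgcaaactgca
Rplp0, chr5:115559452-115559481, + strand: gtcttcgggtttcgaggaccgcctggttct
Rps7, chr12:28635939-28635968, - strand: gcttccggtttccacccacctacttccgct
Rps2, chr17:24720048-24720077, + strand: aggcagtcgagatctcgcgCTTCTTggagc
Rps12, chr10:23787195-23787224, - strand: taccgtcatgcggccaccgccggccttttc
Rpl13a, chr7:45128731-45128760, - strand: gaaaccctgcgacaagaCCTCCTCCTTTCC
Rps27, chr3:90213634-90213663, - strand: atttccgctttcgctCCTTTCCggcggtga
Rps23, chr13:90923107-90923136, + strand: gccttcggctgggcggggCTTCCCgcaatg
Rpl22, chr4:152325711-152325740, + strand: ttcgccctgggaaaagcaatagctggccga
Rpl22l1, chr3:28805493-28805522, + strand: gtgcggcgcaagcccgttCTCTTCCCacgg
Rps27l, chr9:66946071-66946100, + strand: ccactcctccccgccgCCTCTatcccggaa
For the shares, a gene counted when any of its listed starts, not only the first, had such a tract on its strand. This held for 27 of the 56 canonical members in the table (48.2%). It also held for 4395 of 20267 genes of the files with a promoter there (21.7%). The canonical members with a tract had a median log2 ratio between LSECs of the genotypes of 1.41 (range 1.07 to 1.97, n = 27), and those without one 1.45 (range 1.06 to 2.06, n = 29), so the ratios overlapped over nearly their whole range. A start site listed a few bases off hides a tract, and a window without one says nothing else about the gene.

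LSECs were cells of endothelial-like clusters without a Vwf UMI, 4132 from the control and 3252 from the Maf LSEC-KO library, with medians of 8386 and 13870 UMIs. The Vwf filter removed far more cells from the Maf LSEC-KO library. With Vwf cells kept, there were 4293 control and 4434 Maf LSEC-KO cells. All 14 endothelial marker genes used had UMIs in the LSECs of both libraries, with a summed level of 20591 and 13112 CPM. Members and mitochondrial genes were left out of the clustering, so that the members did not choose the cells. Levels are in CPM, scaled to the UMIs of genes that are neither mitochondrial nor members. Maf, the targeted gene, had 3448 CPM in control LSECs and 124 CPM in those of Maf LSEC-KO mice (log2 ratio -4.79, 95% interval -4.84 to -4.75), and was detected in 99.1% and 21.4% of these cells. Control LSECs also held more erythroid RNA (1242 against 14.3 CPM summed over 6 genes) and more hepatocyte (136 against 68.2 CPM over 9 genes), T/NK (82.1 against 15.7 CPM over 14 genes) and Kupffer or macrophage RNA (356 against 193 CPM over 12 genes). B cell RNA was scarce and lower in control LSECs (4.47 against 25.9 CPM over 9 genes). The part of these RNAs in the results was not tested. The libraries shared 10 barcodes, 4 of them among LSECs.

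Ribosomal protein genes supplied 8.01% of the UMIs outside mitochondrial genes in control LSECs (2881782 UMIs) and 19.1% in Maf LSEC-KO LSECs (9546862 UMIs). Relative to the UMIs of all other genes they were 2.72-fold higher (2.71 to 2.72), a log2 ratio of 1.44. The mean LSEC held 697 member UMIs and 8013 UMIs of other genes in the control, against 2936 and 12408 in the Maf LSEC-KO library. Mitochondrial UMIs were 4.44% of all UMIs in control LSECs and 4.34% in those of Maf LSEC-KO mice. Relative to the UMIs of other genes, as for the members, they had 50525 and 56134 CPM (log2 0.152, 0.149 to 0.155), a far smaller ratio than that of the members. The level of Malat1, a nuclear RNA used as a sign of cell quality, had a log2 ratio of 0.07. Neat1, another nuclear RNA, had 359 and 272 CPM (log2 -0.40, -0.44 to -0.36).

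Every member with enough UMIs to be assessed was higher in the Maf LSEC-KO library. Of the 85 members, 80 reached 50 CPM in the LSECs of either library, and 80 of 80 were more than 1.5-fold higher and 0 lower, beside 20.3% of the 4599 genes at that level that were higher by this fold and 11.2% that were lower. Scaled to the UMIs of all genes, 14.5% of these genes were higher and 17.5% lower. Among the 76 canonical members, 75 were past 2-fold, a limit at which the share of all genes was not computed. Their median log2 ratio was 1.44 with quartiles of 1.28 and 1.63, whereas the median of all genes was 0.11. Large subunit (median 1.44, n = 43) and small subunit members (median 1.45, n = 30) had near-equal medians. In control LSECs, the canonical members ranged from 430 to 3076 CPM and were found in 83.6% to 97.6% of cells. In Maf LSEC-KO LSECs they had at least 1092 CPM and were found in 95% to 99.7% of cells. These genes lie on 19 chromosomes, with at most 14 on one of them (chromosome 7).

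**Figure D1:**
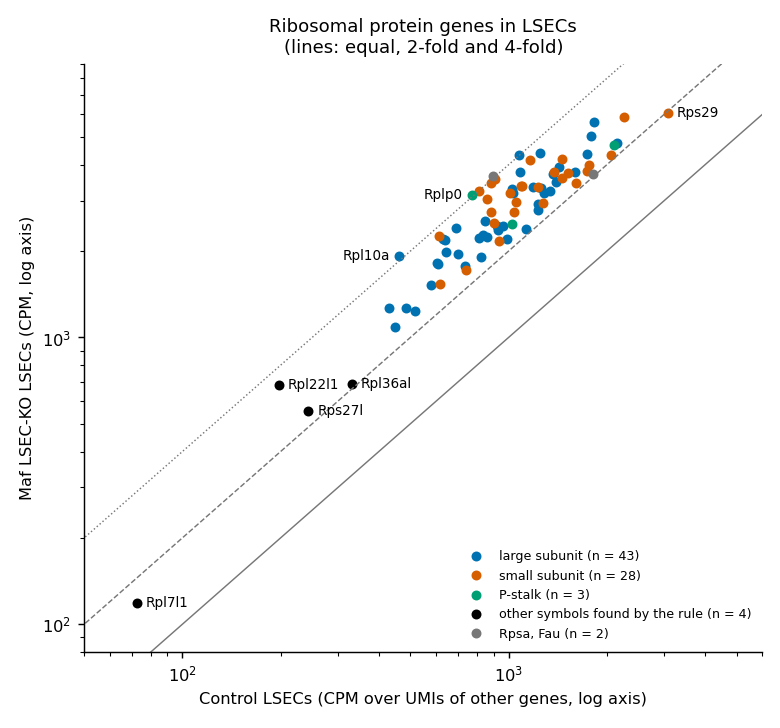
Level of ribosomal protein genes with at least 50 CPM in control LSECs (x axis) and Maf LSEC-KO LSECs (y axis), in CPM over the UMIs of other genes, both axes logarithmic, 1 library per genotype, with lines for equal, 2-fold and 4-fold levels. All points lie above the line of equal levels, from Rpl7l1 at 72.5 and 119 CPM to Rps29 at 3076 and 6064 CPM, and Rpl10a, Rplp0, Rpl32 and Rpsa lie at or beyond the 4-fold line.

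The 8 canonical members with the largest ratios were Rpl10a, Rplp0, Rpl32, Rps7, Rps2, Rps18, Rps26 and Rps19. Rpl10a, the protein of the L1 stalk where spent tRNA leaves the ribosome, had 460 CPM in control LSECs and 1920 CPM in Maf LSEC-KO cells (log2 2.06, 2.04 to 2.09). Rplp0, the base of the P-stalk that recruits elongation factors, had 773 and 3136 CPM (log2 2.02, 2.0 to 2.04). Rpl32, a large-subunit protein, had 1078 and 4332 CPM (log2 2.01, 1.99 to 2.02). These 3 genes were about 4-fold higher, well past the 2.72-fold of the sum.
Rps7, a small-subunit protein that also binds MDM2, had 814 CPM in control LSECs and 3234 CPM in Maf LSEC-KO cells (log2 1.99). Rps2, near the mRNA entry site of the small subunit, had 912 and 3577 CPM (log2 1.97). Rps18, in the head of the small subunit, had 884 and 3451 CPM (log2 1.96). All of them were small-subunit genes, as were Rps26 and Rps19. At the mRNA exit, Rps26 had 612 and 2257 CPM (log2 1.88), and for Rps19, mutated in Diamond-Blackfan anemia and needed to mature the small subunit, the values were 1162 and 4171 CPM (log2 1.84).

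Among the smallest ratios were those of Rps29, Rps12, Rpl13a, Rps27, Rps23, Rpl37a and Rpl8, and these genes too were higher in the Maf LSEC-KO library. Rps29, a zinc-binding protein of the small subunit, had 3076 CPM in control LSECs and 6064 CPM in Maf LSEC-KO cells (log2 0.98, 0.97 to 0.99) and was the one canonical member short of 2-fold. Rps12, of the small-subunit head, had 2064 and 4316 CPM (log2 1.06, 1.05 to 1.08). Rpl13a, which also has a role in silencing inflammatory mRNAs as part of the GAIT complex, had 1132 and 2382 CPM (log2 1.07, 1.06 to 1.09). Between Rpl10a and Rps29 the difference in log2 ratio was thus larger than the counting intervals of either gene.
Rps27, another zinc-binding small-subunit protein, had 1614 and 3446 CPM (log2 1.09). Rps23, which sits at the decoding centre, had 1736 and 3808 CPM (log2 1.13). Rpl37a had 2149 and 4748 CPM (log2 1.14), and Rpl8 991 and 2203 CPM (log2 1.15).
High UMI levels in control LSECs, which are counts of 3′ ends and were not divided by length, came from Rps29, Rps24 (2254 and 5868 CPM, log2 1.38), Rpl37a and Rplp1. Rps29 had 3.53% of the member UMIs in control LSECs and 2.56% in Maf LSEC-KO LSECs.

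Members known for a role beyond translation or for a special place in the ribosome were spread over the same range. Rpl5 and Rpl11, which with 5S RNA form the particle that inhibits MDM2 and so stabilizes p53, had 701 and 1961 CPM (log2 1.48) and 919 and 2446 CPM (log2 1.41). Rpl10, added last to the large subunit, had 965 and 2442 CPM (log2 1.34). Rpl38, known from mouse mutants with a changed axial skeleton, had 1235 and 2929 CPM (log2 1.25). These 4 genes lay near or below the median of the canonical members.
Rps3, which also acts in DNA repair, had 1009 and 3184 CPM (log2 1.66). Rps6, the target of the S6 kinases, had 885 and 2738 CPM (log2 1.63), and Rps14, which lies in the region lost in 5q- syndrome in humans, had 1525 and 3743 CPM (log2 1.29). Rps25, needed by many viral internal ribosome entry sites, had 741 and 1723 CPM (log2 1.22). Rps27a, made as a fusion with ubiquitin, had 1232 and 3357 CPM (log2 1.45).
The acidic P-stalk proteins Rplp1 (2099 and 4689 CPM, log2 1.16, 1.15 to 1.17) and Rplp2 (1022 and 2485 CPM, log2 1.28, 1.26 to 1.30) had smaller ratios than their partner Rplp0, and the 3 intervals did not overlap.

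Rpsa and Fau, which encode ribosomal proteins but escape the symbol rule, were higher as well. Rpsa, the small-subunit protein also known as the laminin receptor, had 898 and 3666 CPM (log2 2.03, 2.01 to 2.05), a ratio between those of Rpl10a and Rplp0. Fau, a ubiquitin-like fusion with S30, had 1818 and 3707 CPM (log2 1.03).

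The paralogs differed from their canonical partners in size more than in direction. Rpl22l1, the paralog of Rpl22 that replaces it in some ribosomes, had 198 CPM in control LSECs and 683 CPM in Maf LSEC-KO cells (log2 1.79, 1.75 to 1.83), against 824 and 1908 CPM for Rpl22 (log2 1.21, 1.19 to 1.23). The ratio of Rpl22l1 was the larger one and the intervals did not overlap. After each LSEC was thinned to 2700 UMIs, which left 3720 control and 3065 Maf LSEC-KO LSECs, Rpl22l1 was found in 35.8% (exact interval 34.3 to 37.4) and 65.8% (64.1 to 67.5) of cells, and without thinning in 66.2% and 89.8%.
Rps27l, a paralog of Rps27 known as a p53 target, had 243 and 556 CPM (log2 1.19, 1.15 to 1.23), above Rps27 at 1.09 (1.08 to 1.11). Rpl36al had 331 and 686 CPM (log2 1.05, 1.02 to 1.08), below Rpl36a with 603 and 1819 CPM (log2 1.59, 1.57 to 1.62). Rpl22l1 and Rps27l thus lay above their partners and Rpl36al below.
Rpl7l1, related to Rpl7 and found in precursors of the large subunit, had 72.5 and 119 CPM (log2 0.71, 0.64 to 0.79), against 1.38 for Rpl7. Rps27rt, at 18.8 and 38.9 CPM, shared 92.4% of the 31-base words of its 3′ end with other genes, Rps27 first among them, so its UMIs are uncertain. Rps19bp1 had 31.1 and 46.7 CPM (log2 0.59, 0.48 to 0.70), beside 1.84 for Rps19. Rpl39l was scarce, with 20 UMIs in the LSECs of control and 33 in those of Maf LSEC-KO mice (log2 0.44, -0.41 to 1.32), while Rpl39, on the X chromosome, had 1083 and 3775 CPM (log2 1.8). Rpl10l and Rpl3l had at most 2 UMIs in either library, so no fold was given.
Among the canonical members, 15 of 76 shared more than 10% of such words in their last 500 bases with another gene of the table (Rpl10 all of them with a pseudogene row). Rps27 (66.6%) and Rpl36a (69.5%), the partners compared above, and Rps18 (89.1%) were among these 15. How reads were split between such copies is not known for them.

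**Figure D2:**
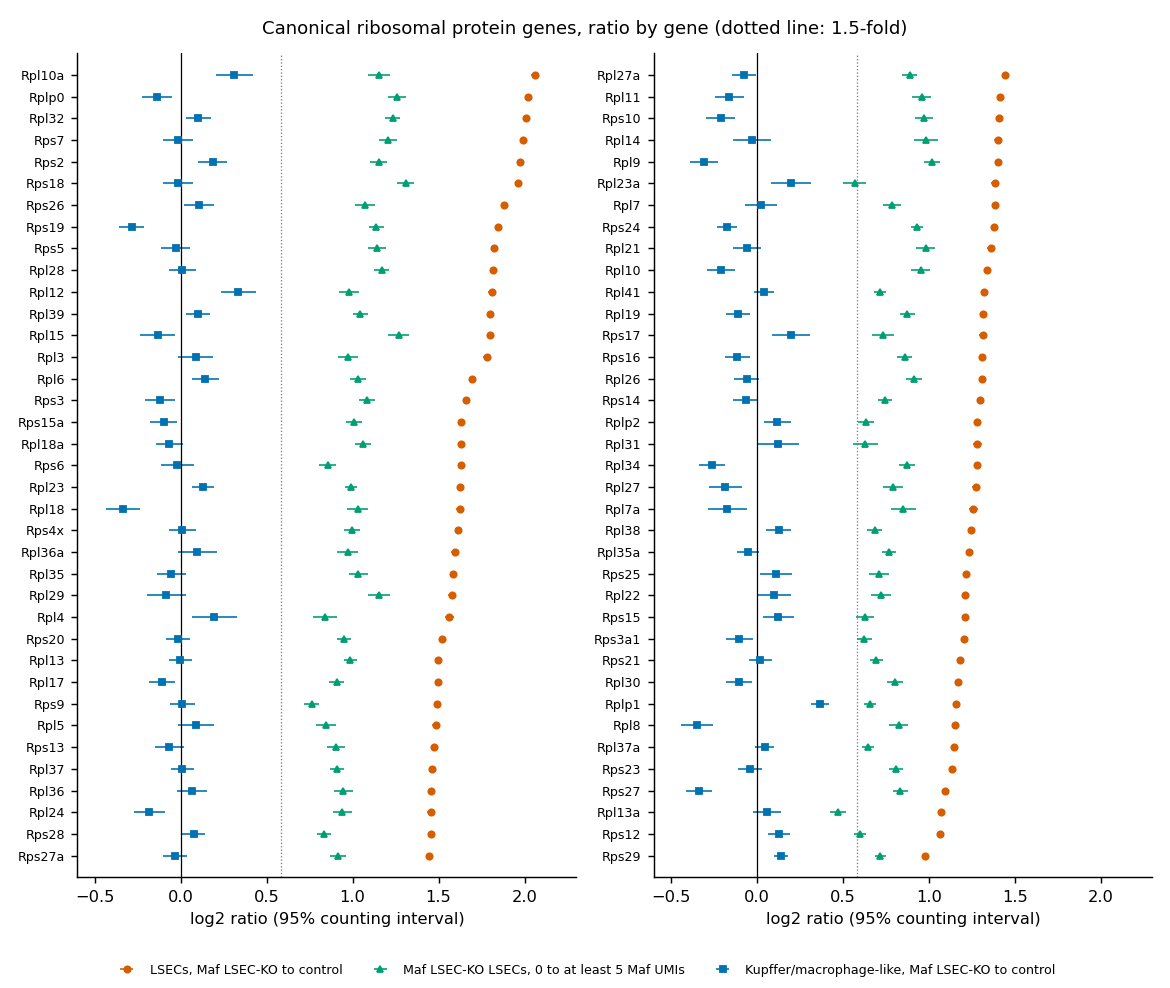
Log2 ratio (x axis) of canonical members, ordered by the ratio in LSECs from the top left to the bottom right, for Maf LSEC-KO to control LSECs (circles), Maf LSEC-KO LSECs with 0 to those with at least 5 Maf UMIs (triangles) and Maf LSEC-KO to control Kupffer or macrophage-like cells (squares), with 95% counting intervals and a dotted line at 1.5-fold. Circles run from 0.98 to 2.06, triangles from 0.47 to 1.31, and squares from -0.35 to 0.37.

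The share of member UMIs was also shifted from cell to cell. In control LSECs its median was 7.44% (5th percentile 2.27, 95th percentile 16.8), and in Maf LSEC-KO LSECs 17.8% (6.20 and 28.2). Of the Maf LSEC-KO LSECs, 92.2% (exact interval 91.3 to 93.1) lay above the control median and 55.6% (53.8 to 57.3) above the control 95th percentile. In turn, 3.85% of control LSECs exceeded the Maf LSEC-KO median, so the distributions overlapped in their flanks.

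**Figure D3:**
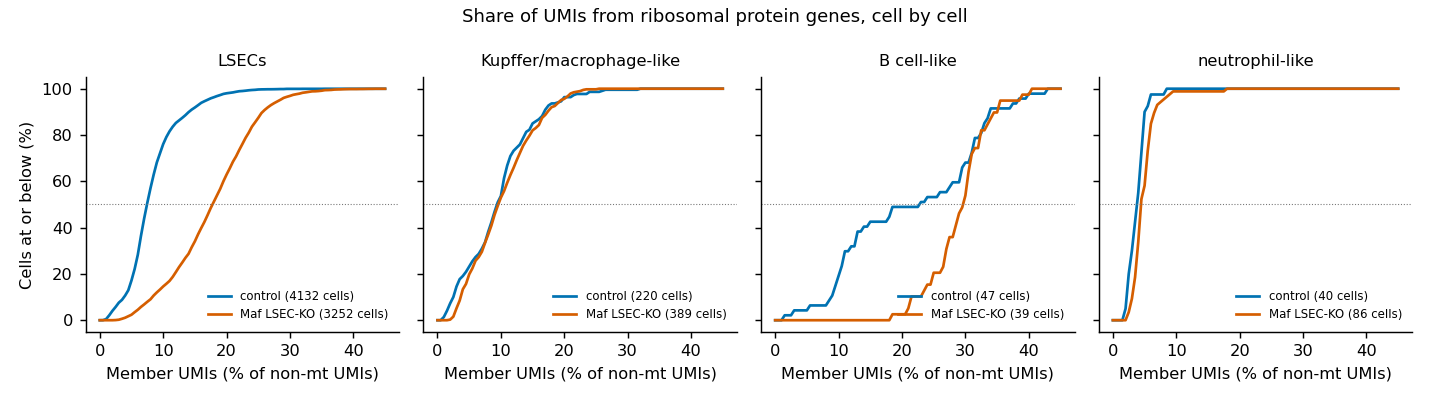
Cumulative share of cells (y axis, percent) at or below a given share of member UMIs among the UMIs outside mitochondrial genes (x axis, percent), for LSECs and 3 classes of immune cells of the control and the Maf LSEC-KO library. The LSEC curves cross 50% at 7.44 and 17.8%, the Kupffer or macrophage-like curves at 9.36 and 9.60%, the B cell-like curves at 22.6 and 29.7% and the neutrophil-like curves at 3.93 and 4.46%.

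Since Maf LSEC-KO LSECs held more UMIs per cell, LSECs of like depth, meaning UMIs per cell, were compared. The source of that difference in UMIs was not tested. With 1500 to 5000 UMIs the member share was 9.53% in the 1110 control LSECs and 15.5% in the 494 of the Maf LSEC-KO library (log2 0.80). Between 5000 and 10000 UMIs it was 7.61% and 15.5% (log2 1.15), and between 10000 and 20000 UMIs 7.96% and 17.8% (log2 1.33). From 20000 UMIs on, it was 7.99% in 188 LSECs of the control and 20.8% in 890 of the Maf LSEC-KO library (log2 1.60). The members were thus higher at every depth, by a smaller ratio in shallow cells.
Clusters gave the same order in most cases. Control clusters had between 7.43% and 9.29% of member UMIs, apart from 2 shallow ones. One of them, led by hepatocyte and hemoglobin genes such as Mup20 and Hba-a1 (582 LSECs, median 3314 UMIs), had 13.9%, and the other, led by hemoglobin genes and Gm26917 (449 LSECs, median 3206 UMIs, 9.87% mitochondrial UMIs), had 3.54%. Maf LSEC-KO clusters had between 14.4% and 20.9%, apart from 1 cluster of 200 LSECs with 9.70%, which is described with Maf below. Some clusters led by genes of other cell types were then left out. These were the 2 shallow ones and that led by Gzma in the control, and those led by Dcn and by Ppbp in the Maf LSEC-KO library. The log2 ratio of the sum was 1.51 and again 80 of 80 members were past 1.5-fold. The share of all genes past this fold was not computed for the cells kept. The removal was uneven. A Maf LSEC-KO cluster led by hemoglobin genes, then by Ubd and Rsad2 (1079 LSECs, 20.9% of member UMIs), was kept. Erythroid RNA over all Maf LSEC-KO LSECs was only 14.3 CPM. A control cluster led by Dcn (447 LSECs, 7.45%) was kept too.

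Within the Maf LSEC-KO library, some LSECs had kept Maf RNA, so cells of the same livers, beads and sequencing could be set side by side. The 213 LSECs with at least 5 Maf UMIs had 11.5% of member UMIs and the 2557 without a Maf UMI 19.5%, a log2 ratio of 0.90 (0.89 to 0.90). Of 80 members, 77 were more than 1.5-fold higher in the LSECs without Maf UMIs and 0 lower, beside 13.3% and 10.2% of all genes. The 3 exceptions, Rpl13a (log2 0.47), Rpl7l1 (0.49) and Rpl23a (0.57), were higher by less.
Rps18 had the largest ratio in this comparison (1442 CPM with and 3570 CPM without Maf, log2 1.31), followed by Rpl15 (1.27) and Rplp0 (1.26). Rpl10a had 893 and 1985 CPM (log2 1.15), and Rps29 3759 and 6181 CPM (log2 0.72). Rpsa had a log2 ratio of 1.14.
LSECs without Maf UMIs were deeper, with a median of 13609 against 10164 UMIs. At 5000 to 10000 UMIs the member share was 8.82% in 81 LSECs with at least 5 Maf UMIs and 16.4% in 492 without, at 10000 to 20000 UMIs 9.97% in 86 and 18.4% in 984, and from 20000 UMIs on 15.8% in 22 and 21.1% in 671. The log2 ratios were 1.02, 1.03 and 0.51, all of one direction.
Most LSECs with kept Maf RNA lay in 1 cluster led by Dnase1l3 and Maf, where 98.0% of 200 cells had a Maf UMI and the member share was 9.70%. Against control LSECs, the LSECs with kept Maf RNA still had a log2 ratio of 0.58 (0.58 to 0.59). LSECs with 1 Maf UMI (346 cells, 19.6%) and with 2 to 4 (136 cells, 19.8%) had shares like those with none.
In the control library, the share was 19.4% in 38 LSECs with 0 Maf UMIs, 14.8% in 84 with 1, 12.2% in 285 with 2 to 4 and 7.80% in 3725 with at least 5. Of the LSECs with under 5 Maf UMIs, between 81.4% and 86.8% lay in the control clusters left out of the comparison above. Their median depths were 2256 to 3158 UMIs. Without these clusters, 5, 12, 53 and 2813 LSECs remained, with shares of 11.8%, 8.51%, 9.25% and 7.69%.

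**Figure D4:**
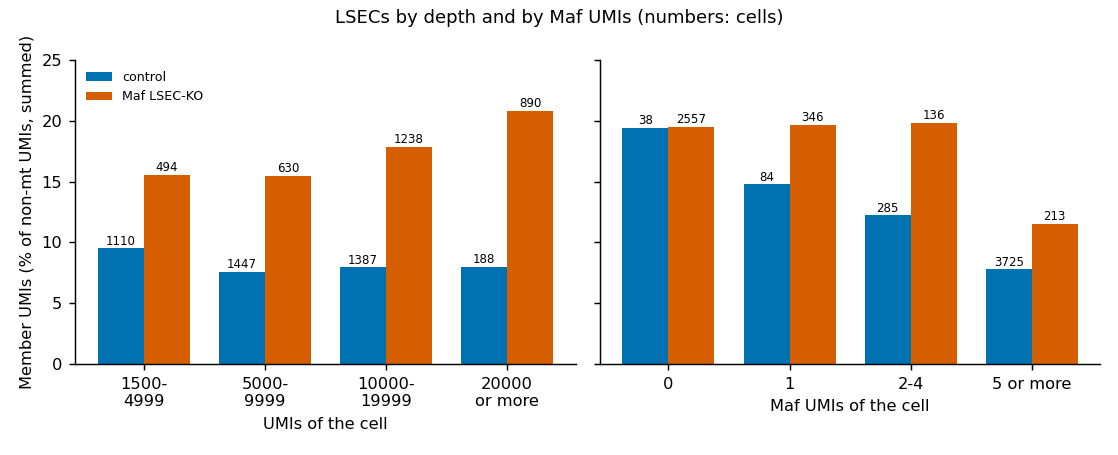
Member UMIs as percent of the summed UMIs outside mitochondrial genes (y axis, from 0) for LSECs by UMIs of the cell (left) and by Maf UMIs of the cell (right), in the control and the Maf LSEC-KO library, with the number of cells above each bar and no replicates. The Maf LSEC-KO bars are higher at each depth, and LSECs with 5 or more Maf UMIs have the lowest bar of their library on the right, 7.80 and 11.5%.

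Cycling LSECs, with UMIs of at least 3 of 10 cell cycle genes, were 87 of the control and 738 of the Maf LSEC-KO LSECs. In the Maf LSEC-KO library the members made up 19.8% of UMIs in cycling and 18.8% in other LSECs, a log2 ratio of 0.10. None of 80 members was past 1.5-fold in either direction, beside 7.87% of all genes higher and 1.57% lower in cycling LSECs. In the control library the shares were 8.82% and 7.98%, but 80 of its 87 cycling LSECs lay in 1 cluster led by the T/NK genes Gzma, Nkg7 and Ccl5 beside Mki67. Without cycling LSECs the log2 ratio between the genotypes was 1.41, and 80 of 80 members were past 1.5-fold. This class misses part of the dividing cells, since 140 of the 410 LSECs in a Maf LSEC-KO cluster led by replication genes such as Mcm5 and Hells were below its limit. Dropping also the clusters led by cell cycle genes (leaving 3907 LSECs of the control and 2373 of the Maf LSEC-KO library) gave a log2 ratio of 1.42, again with 80 of 80 members past 1.5-fold. The share of all genes past this fold was not computed for either reduced set of cells.

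Immune cells of the same libraries, which Clec4g-iCre does not target, showed how the members differed between the libraries in other cells. In Kupffer or macrophage-like cells (220 control and 389 Maf LSEC-KO cells), the resident macrophages of the liver, Maf had 1507 and 1509 CPM. The member share was 10.3% in both libraries, with a log2 ratio of -0.01 (-0.02 to 0.00). None of 80 members was past 1.5-fold, beside 9.02% of genes higher and 11.3% lower. By their counting intervals, 21 of the 76 canonical members were higher, 24 lower and 31 neither. The share of all genes with such intervals was not computed, and at the members' high counts intervals exclude 0 at small ratios. The ends of the range were Rplp1 with 2817 and 3631 CPM (log2 0.37, 0.31 to 0.42) and Rpl8 with 1196 and 940 CPM (log2 -0.35, -0.44 to -0.26). Rpl10a, at the top in LSECs, had 708 and 880 CPM here (log2 0.31), and Rplp0 1223 and 1112 CPM (log2 -0.14).
Median depth was 5117 and 4554 UMIs in these cells. The 14 endothelial genes were found in them at a median of 30.1% of their LSEC level for the control library and 14.5% for the other, although these genes mark another cell type. How much of the Maf RNA counted in these cells came from LSECs was not tested. In the cells with little endothelial RNA (147 and 310, under 0.2 of the median LSEC share), the shares were 10.4% and 9.85% (log2 -0.09, -0.10 to -0.08).

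B cell-like cells had 16.8% of member UMIs in 47 control and 28.7% in 39 Maf LSEC-KO cells (log2 0.99, 0.98 to 1.01). Of 81 members, 78 were more than 1.5-fold higher, beside 23% of genes higher and 28.8% lower, and the 3 others were Rps27l (log2 -0.01), Rpl7l1 (0.40) and Rps27rt (0.57). Control B cell-like cells held the endothelial genes at a median of 66.6% of their LSEC level, against 24.1% in the Maf LSEC-KO library, and Maf at 2317 CPM, against 18.8 CPM. In the 27 control and 35 Maf LSEC-KO B cell-like cells with little endothelial RNA, the member shares were 31% and 31.2%, with a log2 ratio of 0.01 (-0.01 to 0.03).
Neutrophil-like cells had the lowest share, 3.86% in 40 control and 4.88% in 86 Maf LSEC-KO cells (log2 0.35, 0.31 to 0.39). Here 25 of 79 members were more than 1.5-fold higher and 0 lower, beside 13.2% and 25.7% of genes, with canonical ratios from -0.09 (Rpl8) to 1.70 (Rpl36a). The endothelial genes stood at 14% and 7.34% of their LSEC level, and in the cells with little of that RNA (38 and 83) the log2 ratio was 0.31. In all immune cells together, 307 control and 644 Maf LSEC-KO cells, the members had 11.3% and 13.6% (log2 0.31, 0.30 to 0.31). That sum includes 60 T/NK-like and 70 monocyte-like cells, with median shares of 18.6% and 16%, which formed named clusters in the Maf LSEC-KO library and not in the control.

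Other genes of translation were assessed in LSECs by lists, to be read beside the 20.3% of all genes that were higher and 11.2% that were lower. Counts with another scaling are to be read beside the shares of all genes under that scaling. These were 14.5% higher and 17.5% lower with all UMIs and with UMIs outside mitochondrial genes. With the median of ratios they were 16.7% and 14.02%, and with TMM 15.8% and 15.1%. All 7 genes of the elongation list were more than 1.5-fold higher (median log2 1.23), and 6 with each of the 4 other scalings, under which Tpt1 fell short. The ratios ran from Tpt1, whose mRNA also carries a TOP tract (5704 and 8570 CPM, log2 0.59, with 1.5-fold inside its interval) and Eef1d (150 and 298 CPM, log2 0.99) to Eef1a1, which brings tRNA to the ribosome (2539 and 6974 CPM, log2 1.46), and Eef1b2, which recharges Eef1a1 with GTP (360 and 1268 CPM, log2 1.82). Among 30 initiation factors, 17 were higher and 0 lower (median 0.66), and 13 or 14 were higher with the other scalings. The largest ratios were those of Pabpc1, which binds the poly(A) tail (253 and 717 CPM, log2 1.5), and the helicase Eif4a1 (193 and 525 CPM, log2 1.45), and the smallest those of the helicase Eif4a2 (241 and 223 CPM, log2 -0.11) and the repressor Eif4ebp2 (168 and 134 CPM, log2 -0.32).
Of 8 assessed genes whose products bind or modify ribosomal proteins, 5 were higher. Rack1, a scaffold on the small subunit, had 681 and 2145 CPM (log2 1.65) and Npm1, a nucleolar chaperone, 324 and 983 CPM (log2 1.60). The count of 5 was the same with each other scaling. By contrast, the ubiquitin ligase gene Mdm2 (51.3 and 55.4 CPM, log2 0.11) and the kinase gene Rps6kb1 (79.2 and 82.2 CPM, log2 0.05) lay near 0.
Ribosome biogenesis genes reached 50 CPM for 17 of 34, and 16 of the 17 were higher (median 1.17), or 13 to 15 with the other scalings. Nhp2 (31.2 and 126 CPM, log2 2.01) and Dkc1 (22.3 and 83.9 CPM, log2 1.91), both of the particle that modifies ribosomal RNA, had the largest ratios. Tcof1 (39.6 and 61.3 CPM, log2 0.63) and Ubtf, a factor of RNA polymerase I (103 and 124 CPM, log2 0.27), had the smallest.
Proteins of the mitochondrial ribosome form a separate set of nuclear genes. Of 78, 49 were assessed and 28 were higher and 0 lower (median 0.64). Only 14 were higher when scaled to all UMIs or to those outside mitochondrial genes, 20 with TMM and 22 with the median of ratios. The ratios ran from Mrpl52 (197 and 205 CPM, log2 0.06) to Mrps6 (49.4 and 107 CPM, log2 1.11). The largest of these ratios was thus below the median of the canonical cytosolic members. The 13 genes encoded in the mitochondrial genome had 0 higher and 0 lower (median -0.01). All 8 assessed cycling genes were higher (median 2.55).

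**Figure D5:**
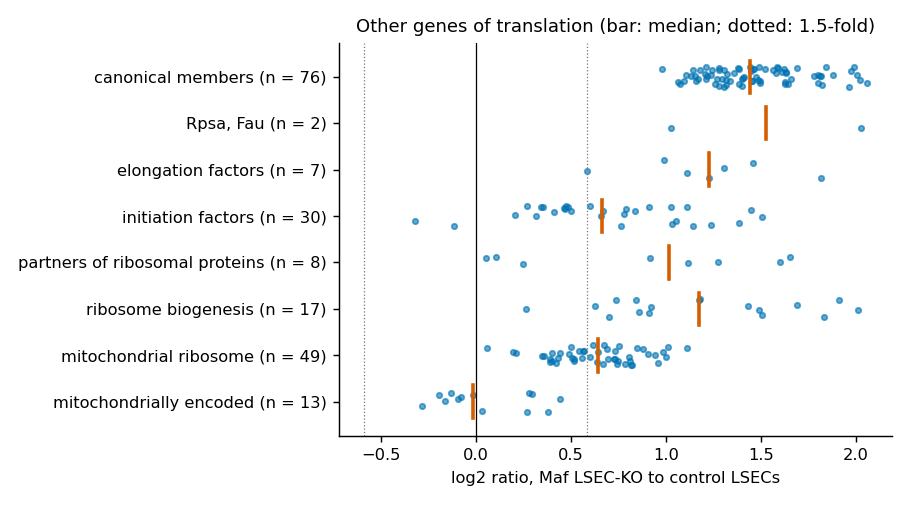
Log2 ratio between Maf LSEC-KO and control LSECs (x axis) for each gene with at least 50 CPM in 8 gene sets (rows, with the number of genes), points spread vertically for sight only, bars at the medians and dotted lines at 1.5-fold. Medians fall from 1.44 in the canonical members over 1.23 (elongation) and 1.17 (biogenesis) to 0.66 (initiation), 0.64 (mitochondrial ribosome) and -0.01 (mitochondrially encoded).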

How the data were processed

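The deposited values are UMI counts per gene and barcode, which the authors made from 3′ libraries with Cell Ranger 6.0.2 and mm10, as whole numbers without normalization, for barcodes with at least 500 UMIs. Totals were 47681895 UMIs over 5664 barcodes (control) and 89872764 over 7091 (Maf LSEC-KO). The study took mitochondrial and ribosomal protein genes off its gene list after clustering, as prone to batch effects, and its subtraction of empty-droplet RNA is not part of the counts and was not repeated. Of these, 4961 and 5423 barcodes reached 1500 UMIs and 750 genes. Each library was clustered with Seurat 5.3.0 (16 and 20 principal components, resolution 0.3) without members and mitochondrial genes. Scrublet in scanpy 1.11.5 marked 0 doublets by itself, so the 225 and 308 highest scores, the expected rate, were removed. A cluster was endothelial-like when Pecam1 and at least 7 of 14 endothelial genes had a UMI in at least 50% of its cells. Other clusters were named from at least 3 markers among their 50 leading genes (pseudocount 5 CPM).

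UMIs were summed over cells, and intervals are exact at 95% (Poisson for sums, conditional binomial for ratios, Clopper-Pearson for shares; scipy 1.17.1). They cover counting error only. A gene was called when past 1.5-fold and at 50 CPM or more in either set, and a count of 0 was set to a floor of 3. The code was tested on simulated counts. With 1 library per genotype, no p-value was computed. Genes were named by rule: the 8 largest and 8 smallest ratios and the 5 highest members, all paralogs with at least 20 UMIs, members with a textbook role, and the ends of each list of translation genes. Some genes these rules name are not reported here and are not drawn singly in the plots of levels and ratios by gene. Members and lists were chosen with earlier results of these data known. Gene positions come from GENCODE M21 (GRCm38). Alternatives covered scaling (with edgeR 4.0.16 for TMM), cell filters, depth and clustering. Bulk RNA-seq and ATAC-seq were not analysed here.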

Additional observations from a re-analysis of the deposited data

Results flagged for a closer look

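In Kupffer or macrophage-like cells, 24 canonical members had a ratio of Maf LSEC-KO to control whose counting interval lay below 0, while all were higher in LSECs, and this difference between the cell types was not tested. The log2 ratios in these cells included -0.35 for Rpl8, -0.34 for Rps27, -0.33 for Rpl18, -0.31 for Rpl9, -0.28 for Rps19, -0.26 for Rpl34 and -0.21 for Rps10 and Rpl10. Smaller ratios were found for Rpl24 and Rpl27 (-0.18), Rps24 and Rpl7a (-0.17), Rpl11 (-0.16), Rplp0 (-0.14), Rpl15 (-0.13), Rps3 (-0.12), Rps16, Rpl19 and Rpl17 (-0.11), Rpl30, Rps3a1 and Rps15a (-0.10) and Rpl27a (-0.07). None was past 1.5-fold, and 21 other canonical members had an interval above 0. The share of all genes with an interval below or above 0 was not computed.

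The pseudogene rows, which no comparison used, held UMIs in LSECs. Rpl10-ps3 had 10.4 CPM in control and 20.8 CPM in Maf LSEC-KO LSECs, Rpl9-ps6 10.3 and 20.2 CPM, and Rpl36a-ps1 5.68 and 13.4 CPM. Each of them shared words of 31 bases with the 3′ end of the parent gene.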

How the results depend on the processing

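The direction of the 3 main results, the third being the sum over all immune cells, was the same under each alternative tried. The immune classes within that sum had no common ratio. The log2 ratios were -0.01 in Kupffer or macrophage-like, 0.99 in B cell-like and 0.35 in neutrophil-like cells. With little endothelial RNA they were -0.09, 0.01 and 0.31. The sum also holds T/NK-like and monocyte-like cells, named only in the Maf LSEC-KO library. The count of members past 1.5-fold in LSECs stayed between 78 (fold of 2) and 82 (no minimum of CPM, 83 genes assessed). Beside these counts, shares of all genes were computed for the main setting and the other scalings only. The log2 ratio of the member sum in LSECs, 1.44, was 1.26 with scaling by all UMIs and by those outside mitochondrial genes, 1.34 with the median of ratios and 1.31 with TMM, scalings that moved each gene by -0.18, -0.19, -0.10 and -0.13. It was 1.27 as a mean over cells (1.265), 1.31 after thinning to 2700 UMIs and with 5000 to 20000 UMIs, and 1.46 with at least 3000 UMIs. It was 1.45 with at most 10% mitochondrial UMIs (1.446), 1.36 with Vwf cells kept (1.355, 4293 control and 4434 Maf LSEC-KO cells) and 1.41 without cycling LSECs. It was 1.48 with Maf LSEC-KO LSECs of 0 Maf UMIs, 1.46 with members kept in the clustering and 1.45 without cells that held a UMI of another type. Chosen after seeing the data, it was 1.51 without the clusters of other cell types named above, an uneven removal. Without cycling LSECs and clusters led by cell cycle genes, also chosen after seeing the data, it was 1.42. In immune cells the log2 ratio, 0.31, was 0.26 with all UMIs, 0.27 with UMIs outside mitochondrial genes, 0.30 with the median of ratios, 0.20 as a mean over cells, 0.23 after thinning, 0.51 with doublets kept, 0.32 with at least 3000 UMIs, 0.33 with at most 10% mitochondrial UMIs and, chosen after seeing the data, 0.45 as a mean of 3 classes (0.446) and 0.23 in cells with little endothelial RNA. Why doublets moved it most was not tested. No paired analysis was possible because each genotype has 1 library.

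With 1 pool of 3 mice per genotype, the genotype cannot be told apart from any difference in cell isolation, library or sequencing, and the narrow intervals reflect the number of UMIs, not of mice. The Maf LSEC-KO library held more UMIs per LSEC, and RNA of endothelial genes in cells of other classes differed between the libraries.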

Other observations

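Cholangiocyte-like cells also differed in their member share, with a median of 8.27% in 136 control and 12.1% in 37 Maf LSEC-KO cells. The 14 endothelial genes stood at a median of 84.4% of their LSEC level in the control cells and 2.56% in the others, and the part of this RNA in the difference was not tested. Myc, which encodes a transcription factor known to drive ribosome production, had 4.71 CPM in control and 77.0 CPM in Maf LSEC-KO LSECs (156 and 3108 UMIs, log2 4.03, 3.80 to 4.27), a gene chosen after earlier results were known and given as a value only.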
